A study of Mus musculus with 3 samples.

Results

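The 9 genes described here encode proteins that bind microtubules, move along them or modify tubulin. They are Map4, Clasp1, Clip1, Kif1b, Kif5b, Mast2, Spag9, Ttll7 and Agbl1, and they were chosen by name with earlier results of these data known. They are 9 of 48397 gene names in the deposited count table, of which 3219 had a read. In the deposited exon table they hold 516 of 27271 exonic parts, which are stretches of exon cut at every annotated exon boundary. A u before the number of a part marks exon sequence that the annotation lacks.

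The study read long cDNAs from end to end by PacBio Iso-Seq in 3 muscles of male wild-type C57BL/6 mice aged 8 weeks. The muscles were the whole extensor digitorum longus (EDL), the whole soleus and the apex of the heart (cardiac). Each muscle had 1 library, so no difference below has a replicate check, and the number of mice behind a library is not stated in the labels. All libraries were made from cDNA selected for 5 to 10 kb, which limits what can be seen of shorter transcripts.

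Microtubules are hollow polymers of tubulin that serve as tracks for transport and as a scaffold. In striated muscle they form a lattice between the myofibrils and around the nuclei. Binding proteins stabilise the polymer or its growing ends, kinesins and dynein carry cargo along it, and enzymes add and remove glutamate side chains on tubulin or change its ends.

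The libraries held 19826 consensus reads in genes in EDL, 17459 in soleus and 18302 in cardiac muscle. A consensus read stands for 1 or more full-length reads of like sequence, and there were 101804 full-length reads in EDL, 117237 in soleus and 96946 in cardiac muscle. At this depth 1 consensus read equals 50.4, 57.3 and 54.6 RPM, the unit for reads scaled to all reads in genes, in EDL, soleus and cardiac muscle. Most markers of cell type followed the labels. Ryr2, the calcium release channel of heart, had 0 reads in EDL, 0 in soleus and 94 in cardiac muscle. Ryr1, its skeletal muscle counterpart, had 100 reads in EDL, 35 in soleus and 0 in cardiac muscle. Myh7, the slow myosin heavy chain, had 18 reads in EDL, 433 in soleus and 38 in cardiac muscle. Of the fast fibre list, Myh4 had 432, 135 and 17 reads, but Myh2 had 56, 174 and 5 and was lower in EDL than in soleus, at a ratio of 0.283 (0.206 to 0.385). Of the slow fibre list, Mybpc1 had 18, 11 and 0 reads.

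The exons on which the comparisons turn are shown with 12 bases of the neighbouring exons on each side in lower case and the exon in capitals, 5′ to 3′ on the transcript strand. The sequences are those of GENCODE M21 transcripts on GRCm38. The first set holds the 5 whole short coding exons whose use differed between libraries. The Mast2 exon lies on the minus strand at chr4:116333413-116333433, the Kif1b exon on the minus strand at chr4:149261160-149261201 and the Spag9 exon on the plus strand at chr11:94113263-94113301. The Clasp1 exons lie on the plus strand at chr1:118541675-118541698 and chr1:118555285-118555386.
Mast2 part 47: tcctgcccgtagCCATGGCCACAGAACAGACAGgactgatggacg
Kif1b part 52: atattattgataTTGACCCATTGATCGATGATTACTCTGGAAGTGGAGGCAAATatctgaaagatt
Spag9 part 51: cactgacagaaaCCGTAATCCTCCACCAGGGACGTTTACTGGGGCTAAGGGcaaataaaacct
Clasp1 part 60: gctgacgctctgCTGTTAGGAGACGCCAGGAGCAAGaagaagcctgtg
Clasp1 part 74: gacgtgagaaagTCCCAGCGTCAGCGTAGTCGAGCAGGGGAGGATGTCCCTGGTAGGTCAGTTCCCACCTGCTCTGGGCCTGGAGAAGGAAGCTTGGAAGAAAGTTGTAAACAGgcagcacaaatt

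The next set is shown because both Clip1 exons are joined to the same upstream exon. They lie on the minus strand at chr5:123635174-123635278 and chr5:123638956-123638988.
Clip1 part 38: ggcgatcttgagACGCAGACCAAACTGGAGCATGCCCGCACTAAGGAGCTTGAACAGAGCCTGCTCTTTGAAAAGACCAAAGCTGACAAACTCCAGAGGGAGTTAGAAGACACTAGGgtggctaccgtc
Clip1 part 40: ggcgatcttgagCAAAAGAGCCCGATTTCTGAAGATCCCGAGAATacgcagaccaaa

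The last is the start of the large Map4 exon, on the plus strand at chr9:110037288-110040467, of which the first 60 bases are in capitals after the flank.
Map4 part 16: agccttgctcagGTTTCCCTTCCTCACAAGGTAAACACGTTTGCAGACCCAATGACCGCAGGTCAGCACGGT

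These exons are 21, 42, 39, 24, 102, 105, 33 and 3180 nt long, and each is a multiple of 3. Among all members, 13 internal coding exons were held by between 5% and 95% of full-length reads in some library with at least 10 covering reads. All 13, from 6 genes, had a length divisible by 3, with a median of 93 nt. Of 196 other internal coding exons of these genes with at least 10 covering reads, 81 (41.3%) had such a length. This comparison carries no test, since exons of a gene are not independent.

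Gene abundance was compared first. A gene was tested with 20 or more reads in a pair of libraries, and called higher or lower where the exact 95% interval of the RPM ratio lay wholly beyond 2-fold. The interval covers counting error only. In EDL against cardiac muscle, 2 members were called higher and 1 lower of 8 tested. The background for this call was 5.2% higher and 3.2% lower, 8.4% in all, over 500 genes tested. In soleus against cardiac muscle, 3 members were called higher and 0 lower of 9 tested, where the background was 4.86% higher and 3.38% lower, 8.25% in all, over 473 genes. In EDL against soleus, 0 of 9 members were called, with a background of 0.405% higher and 1.42% lower, 1.82% in all, over 494 genes. An interval off equal abundance, a looser rule, held for 6 of 8, 8 of 9 and 3 of 9 members, against 22.4%, 20.5% and 12.1% of all genes tested, for EDL over cardiac, soleus over cardiac and EDL over soleus. EDL and soleus were set against the same cardiac library. The median log2 ratio of the tested members was 0.79 for EDL over cardiac muscle, against 0.02 over all genes tested, and setting Agbl1 to its lower bound leaves this median as it is. It was 1.19 for soleus over cardiac muscle, against 0.07, and -0.54 for EDL over soleus, against -0.06.

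**Figure D1:**
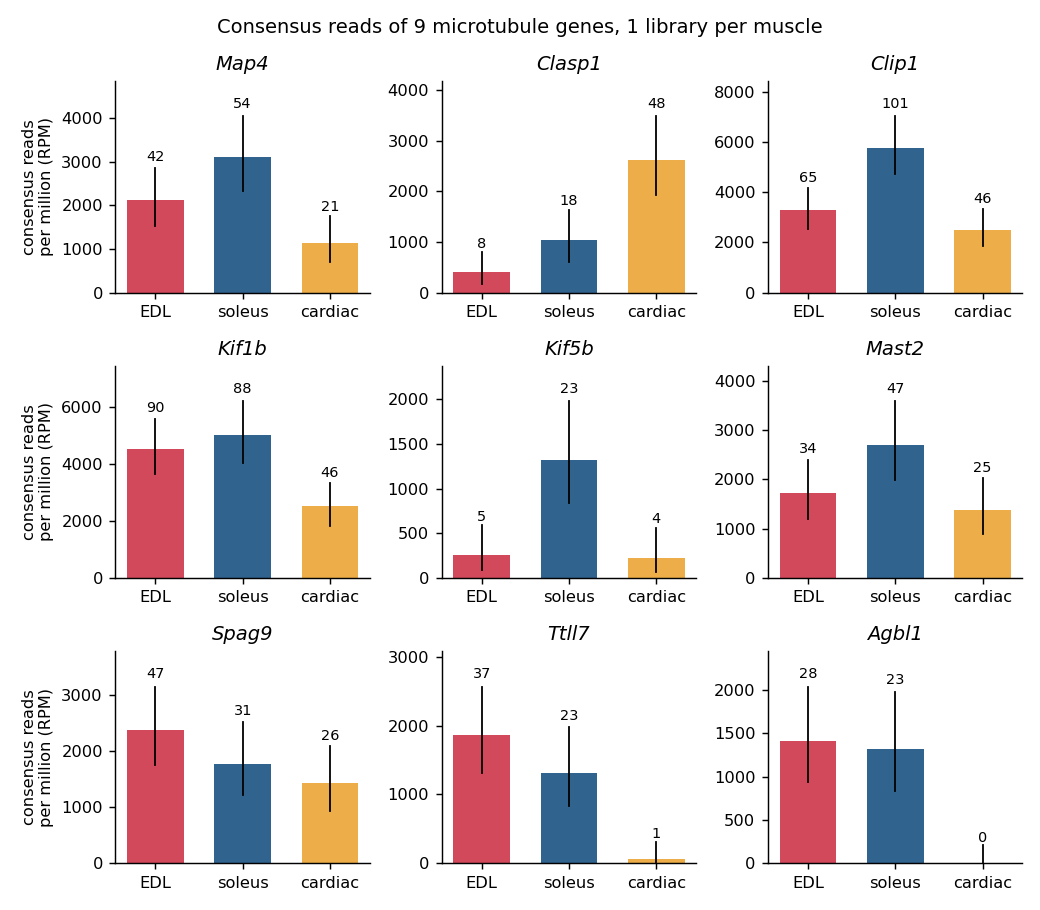
Consensus reads of a gene as RPM (vertical axes, each from 0) of the 9 genes in EDL, soleus and cardiac muscle (1 bar per library); black lines are exact 95% Poisson intervals and the number above each bar is its read count. Ttll7 has 1 cardiac read and Agbl1 has 0, while Clasp1 is tallest in cardiac muscle.

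**Figure D2:**
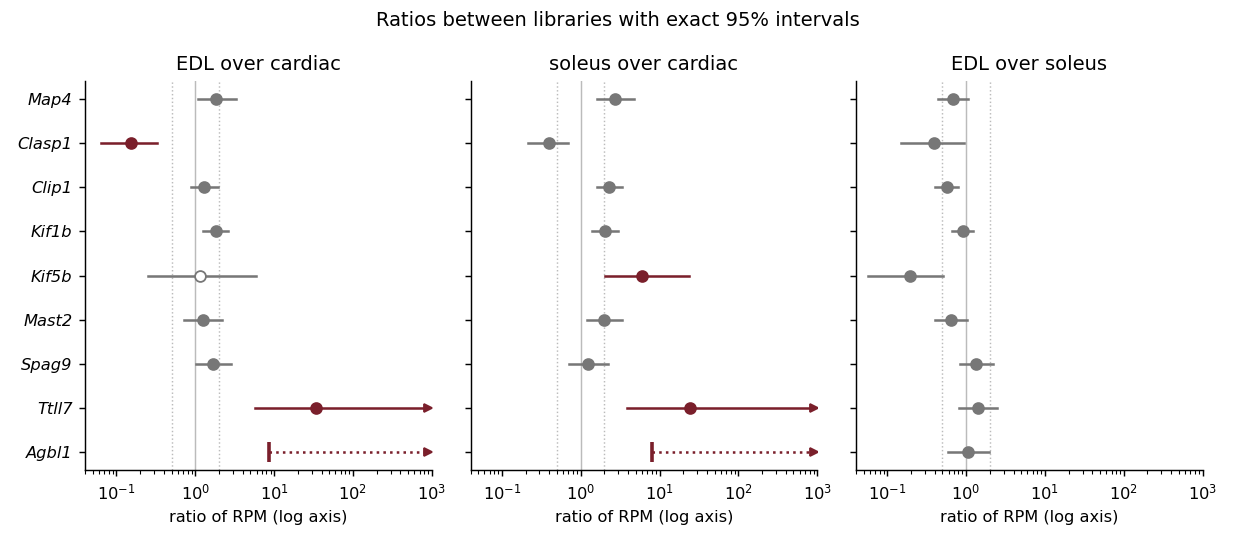
Ratio of RPM (horizontal log axes) for each gene in EDL over cardiac, soleus over cardiac and EDL over soleus, with exact 95% intervals; dark red marks calls, the open circle is Kif5b with too few reads for a call, dotted verticals are 2-fold, and arrows run past the axis. The vertical ticks of Agbl1 are ratios against a floor of 3 reads and lie above the lower ends of its exact intervals. The intervals of Ttll7 lie beyond 2-fold in both leg muscles over cardiac muscle.

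Exon use was compared as the share of full-length reads covering an exonic part that held it. Parts with 30 covering consensus reads in some library were tested by Fisher's exact test (two-sided, adjusted over all genes), and called at an adjusted p under 0.05 and a difference of at least 20 percentage points. Over the 7 members with parts that met the coverage, 308 parts were tested in each pair. Full-length reads called 8 parts for EDL over cardiac muscle, 4 for soleus over cardiac muscle and 3 for EDL over soleus. A pair could include a library under this coverage. The called Clasp1 parts met it only in cardiac muscle, with 7 or 8 covering consensus reads in EDL and 11 or 18 in soleus. Map4 part 16, Mast2 part 47, Spag9 part 51 and Clip1 part u-004 met it in the leg libraries only. Their cardiac counts were 22, 20, 26 and 27. The background over all parts tested was 5.04%, 4.43% and 1.16%, and 2.08%, 1.69% and 0.869% without Ttn and Neb. The members' shares, 2.60%, 1.30% and 0.974%, lay below the background over all parts and near it once Ttn and Neb were left out. Consensus reads called 4, 2 and 1 parts, or 1.30%, 0.649% and 0.325% of the members' parts. The background was 3.42%, 3.12% and 0.405%, and 0.911%, 0.893% and 0.114% without Ttn and Neb. The number of variable parts, held by 5% to 95% of reads in some library with at least 10, was 9 in Map4, 4 in Clasp1, 5 in Clip1, 8 in Kif1b, 3 in Mast2, 7 in Spag9, 1 in Agbl1 and 0 in Kif5b and Ttll7. Some of these parts abut, such as Spag9 parts 8 to 12, so the numbers are not counts of separate exons and do not rank the genes. No share over all parts is given beside them. All 9 parts called by full-length reads are on the list that the authors kept after their check by eye. That list was drawn from these same reads, so the overlap is not independent support.

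The largest ratios among the members were those of the tubulin-modifying enzymes, in leg muscle over heart. Ttll7, at chr3:146852367-146984009, is a tubulin tyrosine ligase-like enzyme that adds glutamate to beta-tubulin. It had 37 reads in EDL, 23 in soleus and 1 in cardiac muscle, which is 1866, 1317 and 54.6 RPM. Both leg libraries were high and the cardiac library was close to empty. The ratio was 34.2 for EDL over cardiac muscle (5.76 to 1385) and 24.1 for soleus over cardiac muscle (3.92 to 993), and both were called higher. For EDL over soleus it was 1.42 (0.820 to 2.50), an interval that includes equal abundance.

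Agbl1, at chr7:76229887-77124698, is a carboxypeptidase of the family that shortens glutamate chains on tubulin. It had 28 reads in EDL, 23 in soleus and 0 in cardiac muscle, or 1412, 1317 and 0 RPM, where a count of 0 allows up to 163.9 RPM. Against that floor of 3 reads in the cardiac library, the EDL level of Agbl1 was at least 8.62-fold higher and the soleus level at least 8.04-fold higher. The ratio for EDL over soleus was 1.07 (0.595 to 1.95).

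Both genes moved with markers of skeletal fibres. The 4 shared skeletal fibre markers Neb, Cacna1s, Ryr1 and Scn4a summed to 37123 RPM in EDL, 23541 in soleus and 492 in cardiac muscle, and 4 of 4 were called higher in each leg muscle. Of 10 cardiomyocyte markers, 8 were tested and 7 were called lower in each leg muscle, with Dsp, Ryr2, Chrm2 and Tbx20 at 0 reads in both. This list, which holds Ttn, summed to 65772 RPM in EDL, 32132 in soleus and 169872 in cardiac muscle. The part of this marker difference in the results was not tested. In bulk tissue, fewer cells of a type and less RNA per cell cannot be told apart.

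Most Agbl1 reads reached the first annotated exon, while many Ttll7 reads, above all in EDL, did not, as the plot of reads covering each part shows. For Ttll7, 66 of 128 full-length EDL reads and 42 of 57 soleus reads reached the first annotated exon. Of its 31 annotated parts, 26 were held by over 95% of covering reads and 5 by under 5% in each leg library, so none was variable. Agbl1 was covered by 81 full-length reads in EDL and 55 in soleus at its best covered part, and 74 and 49 of them reached the first annotated exon. Of its 26 annotated parts, 23 were held by over 95% and 3 by under 5% in each leg library. An unannotated part of 175 nt, u-001, was held by 4 of 74 reads in EDL and 2 of 49 in soleus. Its longest annotated transcript is 3452 nt, below the 5 kb lower limit of the size selection, so its level against other genes cannot be read from these libraries. No Agbl1 part met the coverage for the exon test. The 20 Ttll7 parts tested were set against at most 1 cardiac read, and none was called, though they count among the 308.

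**Figure D3:**
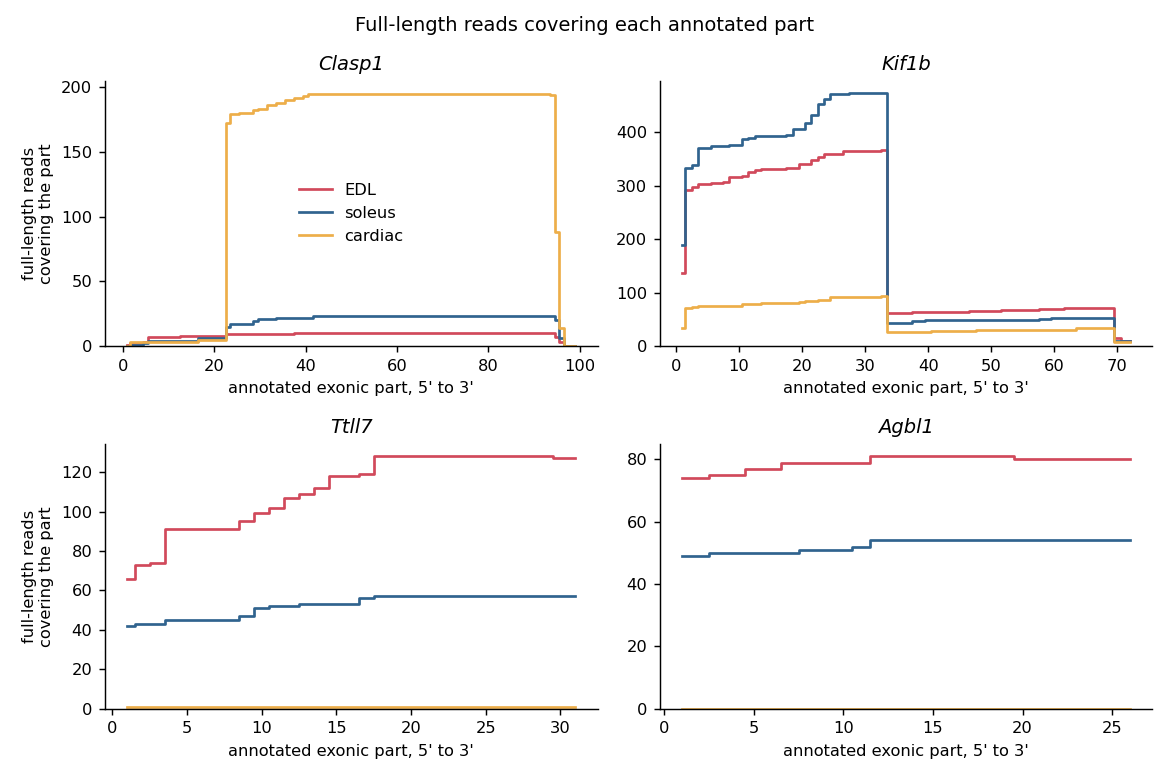
Full-length reads covering each annotated exonic part (vertical axes, from 0) from the 5′ to the 3′ end of Clasp1, Kif1b, Ttll7 and Agbl1 (horizontal axes, order of parts) in EDL, soleus and cardiac muscle. Kif1b loses most reads at its long end exon, Clasp1 gains cardiac reads at part 23, and the Ttll7 and Agbl1 cardiac lines lie at 1 and 0.

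Clasp1 and Clip1 act at the plus ends of microtubules. Clasp1, at chr1:118389058-118612678, encodes a protein that promotes the rescue and stability of growing microtubules at the cell cortex. It had 8 reads in EDL, 18 in soleus and 48 in cardiac muscle, which is 404, 1031 and 2623 RPM. Of the 9 genes, Clasp1 alone had its highest level in the cardiac library. The longest annotated Clasp1 transcript, at 10265 nt, lies above the 10 kb upper limit of the size selection. Its levels, ratios and exon shares thus describe molecules that passed the selection. The ratio for EDL over cardiac muscle was 0.154 (0.0629 to 0.328), called lower. For soleus over cardiac muscle it was 0.393 (0.215 to 0.688), below equal abundance but not wholly beyond 2-fold, and for EDL over soleus 0.391 (0.147 to 0.946). Its relative Clasp2, a listed gene, had 25, 26 and 21 reads in EDL, soleus and cardiac muscle and was not called.

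Clasp1 transcripts also differed at their 5′ end and in internal exons. Part 23 is a 54-nt exon at chr1:118482039-118482092 that is the first exon of 1 of 30 annotated transcripts. It was held by 1 of 9 covering full-length reads in EDL, 9 of 15 in soleus and 167 of 172 in cardiac muscle, or 11.1%, 60% and 97.1%. The reads that lacked it ran on upstream through part 22, which 8 EDL, 6 soleus and 5 cardiac reads held. EDL and cardiac muscle differed by -86.0 points (two-sided Fisher's exact test, adjusted p = 1.26e-08), and soleus and cardiac muscle by -37.1 points (exact test, adjusted p = 0.00072). Counted by consensus reads, in which merged reads enter once, the adjusted p was 0.0039 for EDL and 0.900 for soleus.

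Part 60 of Clasp1, a 24-nt exon of 8 codons, was held by 3 of 10 reads in EDL, 19 of 23 in soleus and 187 of 195 in cardiac muscle. EDL had the lowest share, 30% against 95.9% in cardiac muscle, a difference of -65.9 points (exact test, adjusted p = 6.18e-06). Part 74, a 102-nt coding exon, was held by 0 of 10 reads in EDL, 2 of 23 in soleus and 90 of 195 in cardiac muscle. Its share was highest in cardiac muscle, at 46.2%. The adjusted exact p was 0.0448 for EDL and 0.00953 for soleus against cardiac muscle. By consensus reads these 3 calls were not made, with adjusted exact p = 0.130 for part 60, and 0.193 in EDL and 0.106 in soleus for part 74. The EDL values rest on 10 full-length reads.

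Clip1, at chr5:123577795-123684618, encodes CLIP-170, which tracks growing plus ends and links them to dynactin. It had 65 reads in EDL, 101 in soleus and 46 in cardiac muscle, or 3279, 5785 and 2513 RPM. Soleus was highest. Its ratio to cardiac muscle was 2.30 in soleus (1.61 to 3.34) and 1.30 in EDL (0.881 to 1.95). EDL over soleus was 0.567 (0.408 to 0.782), and none of these was called.

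Clip1 had 3 alternative 5′ exons. The annotated first exon, part 53, was held by 52.5% of full-length reads of this region in EDL, 56.3% in soleus and 53% in cardiac muscle, so the shares lay close together. Most other reads held an exon absent from the annotation instead. Part u-004, of 327 nt at chr5:123670888-123671214, was held by 66 of 141 covering reads in EDL, 133 of 373 in soleus and 14 of 67 in cardiac muscle. Part u-002, of 195 nt at chr5:123661506-123661700 on the minus strand, was held by 0 of 141 reads in EDL, 55 of 426 in soleus and 32 of 100 in cardiac muscle.

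The exon u-002 was thus read in soleus and cardiac muscle and in no EDL read, where 0 of 141 allows up to a share of 2.13%. EDL and cardiac muscle differed by -32.0 points (exact test, adjusted p = 6.93e-13; by consensus reads 4.42e-05). EDL and soleus differed by -12.9 points by full-length reads, under the 20 points set for a call, and by -23.6 points by consensus reads (exact test, adjusted p = 0.00338). Soleus and cardiac muscle differed by -19.1 points (exact test, adjusted p = 0.000383; by consensus reads 1), also under the 20 points. For u-004 the difference between EDL and cardiac muscle was 25.9 points (exact test, adjusted p = 0.00754). By consensus reads it was 14.9 points (exact test, unadjusted p = 0.243) and not called.

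**Figure D4:**
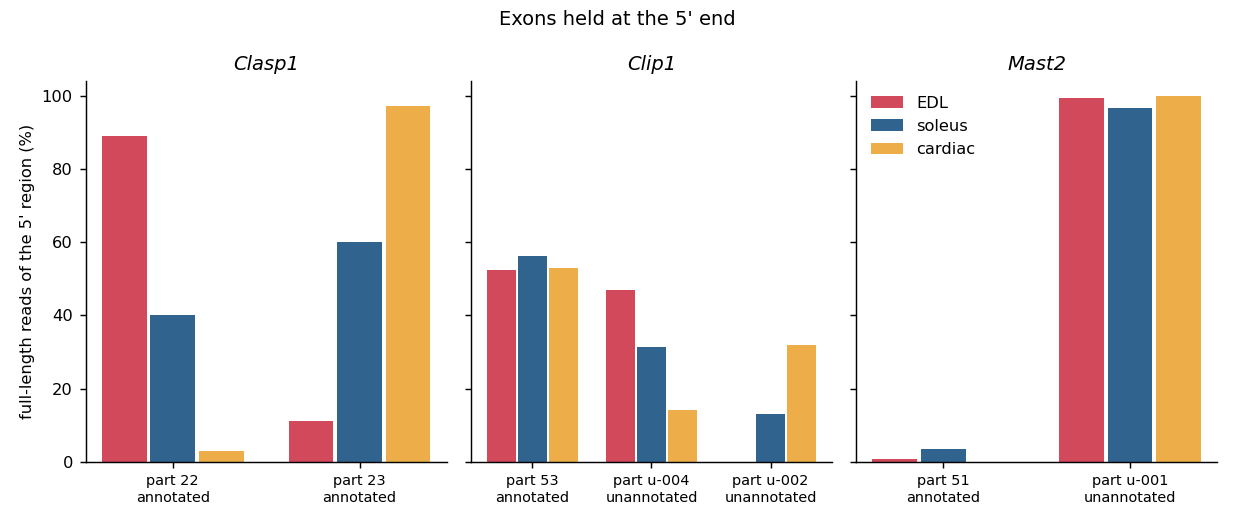
Share of full-length reads of the 5′ region (vertical axis, percent) that hold each 5′ exon of Clasp1, Clip1 and Mast2 in EDL, soleus and cardiac muscle. Part u-002 of Clip1 has no EDL bar because 0 of 141 reads held it, and of the Clasp1 exons part 22 is taller in EDL and part 23 in cardiac muscle.

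Inside the coding region, Clip1 had 3 variable parts with smaller differences, of which the 105-nt and 33-nt exons were chosen after their values were seen. The 228-nt part 35, which is not a whole annotated exon, was held by 43.9% of full-length reads in EDL, 48.3% in soleus and 62.9% in cardiac muscle. The 105-nt exon was held by 18.5%, 5.83% and 8.82%, and the 33-nt exon by 98.6%, 95.5% and 85.3%, in EDL, soleus and cardiac muscle. Most Clip1 transcripts in each library thus carried the 11-codon exon, and no difference reached 20 points. By full-length reads the adjusted exact p was 0.0012 for the 105-nt exon in EDL over soleus. For the 33-nt exon it was 0.000991 in EDL and 0.00953 in soleus over cardiac muscle. By consensus reads, in which merged reads enter once, none of these had an adjusted p under 0.05. The 105-nt exon then had an unadjusted exact p = 0.520 in EDL over soleus. The 33-nt exon had an adjusted exact p = 0.326 in EDL and an unadjusted exact p = 0.0898 in soleus over cardiac muscle.

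Map4, at chr9:109931460-110083955, encodes the main microtubule-associated protein of non-neuronal cells, and a form with a large extra coding exon is known from mouse muscle. It had 42 reads in EDL, 54 in soleus and 21 in cardiac muscle, or 2118, 3093 and 1147 RPM. Both leg libraries were above the cardiac one, with ratios of 1.85 (1.07 to 3.28) in EDL and 2.70 (1.60 to 4.70) in soleus. Neither interval lay wholly beyond 2-fold, and EDL over soleus was 0.685 (0.446 to 1.04).

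The large Map4 exon, part 16, is 3180 nt long and holds 1060 codons without an in-frame stop. It was held by 53 of 59 covering full-length reads in EDL, 92 of 99 in soleus and 11 of 30 in cardiac muscle, or 89.8%, 92.9% and 36.7%. The leg libraries lay close together and the cardiac library was low. The differences from cardiac muscle were 53.2 points in EDL (exact test, adjusted p = 7.51e-06) and 56.3 points in soleus (exact test, adjusted p = 2.30e-08). By consensus reads they were 41.1 and 41.0 points, with adjusted exact p = 0.0105 and 0.00376.

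A read can begin inside so long an exon, so reads that also covered the exon before it, part 15, were considered apart, a choice made after seeing the data. Those holding part 16 were put as the reads covering part 15 less the reads lacking part 16. This assumes that every read lacking part 16 also covered part 15. Of the reads covering part 15, 17 of 23 in EDL, 32 of 39 in soleus and 2 of 21 in cardiac muscle held part 16 by this subtraction. The shares were 73.9%, 82.1% and 9.52%. Skipping the exon makes the transcript shorter by its whole length, and the cDNA was selected by size, so the shares describe molecules that passed the selection. Its share in unselected RNA was not measured.

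The Map4 parts 22, 31 and 32, chosen after their values were seen, differed by at most 5.34 points between libraries. The 93-nt part 32 was held by 68.6% of reads in EDL, 70.4% in soleus and 65.5% in cardiac muscle. The 114-nt part 31 was held by 15.7%, 12.3% and 10.3%, and the 222-nt part 22 by 94.1%, 93.8% and 96.6%. Part u-001, 89 nt that the annotation lacks and 3 nt past annotated part 3, was held by 5 of 13 reads in EDL, 3 of 18 in soleus and 0 of 15 in cardiac muscle, which is too few reads for the test used here. The 85-nt part 4 was held by 1 of 14, 1 of 19 and 0 of 15.

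**Figure D5:**
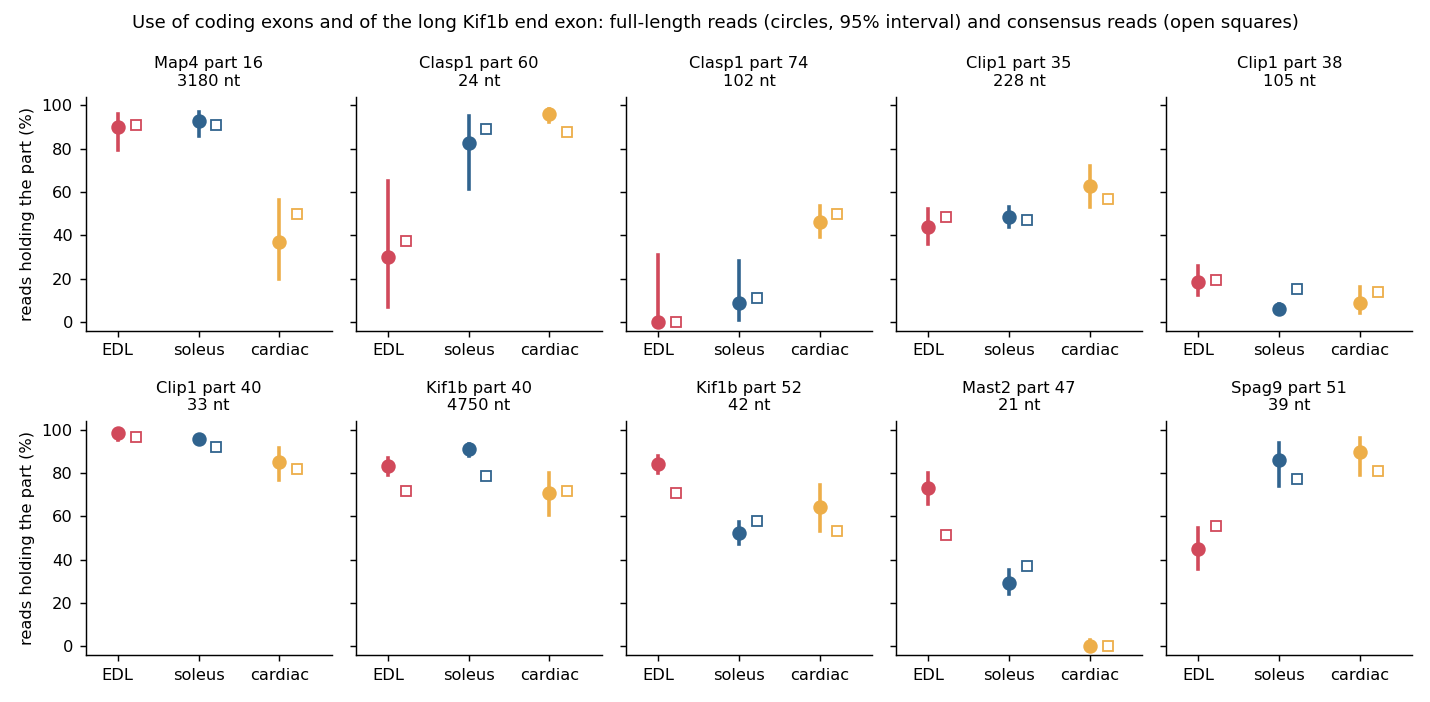
Share of reads holding 9 coding parts and the long end exon of Kif1b (vertical axes, percent) in EDL, soleus and cardiac muscle; filled circles with lines are full-length reads with exact 95% intervals, open squares are consensus reads. Map4 part 16 is low in cardiac muscle, Mast2 part 47 is highest in EDL and at 0 in cardiac muscle, and Spag9 part 51 is low in EDL.

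The motors were 2 kinesins. Kif1b, at chr4:149176319-149307693, carries mitochondria or vesicle precursors depending on its isoform. It had 90 reads in EDL, 88 in soleus and 46 in cardiac muscle, or 4539, 5040 and 2513 RPM. Its ratio to cardiac muscle was 1.81 in EDL (1.25 to 2.64) and 2.01 in soleus (1.39 to 2.93), above equal abundance but not called, and EDL over soleus was 0.901 (0.664 to 1.22).

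Kif1b transcripts ended in different ways. Part 40, of 4750 nt, is the last exon of 1 of 11 annotated transcripts, a short form. It was held by 307 of 368 full-length reads in EDL, 430 of 473 in soleus and 66 of 93 in cardiac muscle, or 83.4%, 90.9% and 71.0%. The remaining reads ran past it into the long form's exons, where 63 EDL, 48 soleus and 27 cardiac reads covered part 33. Short-form reads were the larger share in each library. The longest annotated Kif1b transcript, at 10233 nt, lies above the 10 kb upper limit of the size selection, so these shares describe molecules that passed it. The largest difference, between soleus and cardiac muscle, was 19.9 points (exact test, adjusted p = 3.20e-05), just under the 20 points set for a call. By consensus reads the shares were 71.8%, 78.8% and 71.8%.

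The 42-nt part 52 of Kif1b, 14 codons, was held by 287 of 341 full-length reads in EDL, 218 of 417 in soleus and 54 of 84 in cardiac muscle. EDL was highest at 84.2%, against 52.3% in soleus and 64.3% in cardiac muscle. EDL and soleus differed by 31.9 points (exact test, adjusted p = 7.28e-19), and EDL and cardiac muscle by 19.9 points (exact test, adjusted p = 0.0021), under the 20 points. By consensus reads the difference between EDL and soleus was 12.6 points (exact test, unadjusted p = 0.154) and not called. Between EDL and cardiac muscle it was 17.5 points by consensus reads (exact test, unadjusted p = 0.116). The outermost annotated part, part 72 of 1 nt, was held by 131 of 137 reads in EDL, 173 of 190 in soleus and 34 of 34 in cardiac muscle. An unannotated part, u-003, of 149 nt lay 6174 nt upstream of the annotated gene start, and was held by 6 of 6 reads in EDL and 16 of 16 in soleus that covered it, with 0 covering reads in cardiac muscle.

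Kif5b encodes a heavy chain of conventional kinesin. It had 5 reads in EDL, 23 in soleus and 4 in cardiac muscle, or 252, 1317 and 219 RPM, so soleus was high and the other libraries were low. Soleus over cardiac muscle was 6.03 (2.06 to 23.98), called higher. The call was lost under both other scalings tried, where the lower end was 1.98 and 1.91. EDL over soleus was 0.191 (0.0569 to 0.515), not called, and EDL and cardiac muscle together had too few reads for a call. No exonic part of Kif5b met the coverage for the exon test.

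Mast2 and Spag9 are a kinase and a scaffold linked to microtubules. Mast2, at chr4:116306762-116464183, is a microtubule-associated serine/threonine kinase. It had 34 reads in EDL, 47 in soleus and 25 in cardiac muscle, or 1715, 2692 and 1366 RPM, and was called in no pair. Soleus over cardiac muscle was 1.97 (1.19 to 3.34) and EDL over cardiac muscle 1.26 (0.727 to 2.20). EDL over soleus was 0.637 (0.397 to 1.01).

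The 21-nt part 47 of Mast2, 7 codons, differed in every pair. It was held by 115 of 157 full-length reads in EDL, 77 of 262 in soleus and 0 of 132 in cardiac muscle, or 73.2%, 29.4% and 0%. A count of 0 of 132 allows a share of up to 2.27%. The differences were 73.2 points for EDL over cardiac muscle (exact test, adjusted p = 2.16e-43), 29.4 points for soleus over cardiac muscle (adjusted exact p = 1.36e-14) and 43.9 points for EDL over soleus (adjusted exact p = 2.81e-16). By consensus reads the exon was held by 17 of 33 in EDL, 17 of 46 in soleus and 0 of 20 in cardiac muscle. The adjusted exact p was then 0.00145 and 0.0423 against cardiac muscle. EDL over soleus, at 14.6 points (unadjusted exact p = 0.251), was not called.

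Nearly all Mast2 reads held, at their 5′ end, an exon absent from the annotation. Part u-001, of 355 nt at chr4:116371465-116371819, was held by 156 of 157 reads in EDL, 254 of 263 in soleus and 140 of 140 in cardiac muscle. The start of Mast2 in RefSeq lies 92.4 kb upstream of it. The annotated exon next upstream, part 51, was held by 1 EDL, 9 soleus and 0 cardiac reads. The 49-nt part 50 after u-001 was held by 81.5% of full-length reads in EDL, 84.0% in soleus and 88.6% in cardiac muscle. The 3-nt part 4 was held by 90.4%, 83.2% and 84.1%.

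Spag9, at chr11:93996091-94126085, encodes JIP4, a scaffold that links kinesin-1 and dynactin to cargo and to kinases of the JNK and p38 pathways. It had 47 reads in EDL, 31 in soleus and 26 in cardiac muscle, or 2371, 1776 and 1421 RPM. No pair was called, with EDL over cardiac muscle at 1.67 (1.01 to 2.81), soleus over cardiac muscle at 1.25 (0.718 to 2.19) and EDL over soleus at 1.34 (0.831 to 2.17).

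The 39-nt part 51 of Spag9, 13 codons, was held by 50 of 111 full-length reads in EDL, 49 of 57 in soleus and 53 of 59 in cardiac muscle. EDL was low at 45%, against 86.0% in soleus and 89.8% in cardiac muscle. The differences were -44.8 points for EDL over cardiac muscle (exact test, adjusted p = 9.36e-08) and -40.9 points for EDL over soleus (exact test, adjusted p = 1.89e-05). By consensus reads they were -25.5 and -22.1 points with adjusted exact p = 0.791 and 1. An unannotated part, u-003, was held by 5 of 25 reads in EDL, 0 of 11 in soleus and 0 of 8 in cardiac muscle. The 15-nt part 9, at the start of 2 annotated transcripts, was held by 0 of 26, 4 of 16 and 0 of 11.

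None of the wider microtubule genes tested was called in any pair. Of 189 listed genes, 65 had a read, and 19 were tested in each pair with 0 called, against a background of 8.4%, 8.25% and 1.82% for EDL over cardiac, soleus over cardiac and EDL over soleus. With so few genes tested, 0 calls lie near the background. Their median log2 ratio was -0.12 for EDL over cardiac muscle, 0.15 for soleus over cardiac muscle and -0.18 for EDL over soleus. Among kinesins, Kif16b, which carries endosomes, had 39 reads in EDL, 43 in soleus and 45 in cardiac muscle, and Kif13a had 15, 22 and 18. Among dynein-related genes, Trak2, a mitochondrial motor adaptor, had 32, 39 and 40 reads, and Pafah1b1, the dynein regulator LIS1, had 32, 25 and 43. Phldb1, a cortical partner of CLASP proteins, had 21, 21 and 43.

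Among centrosome and Golgi anchors, Golga4 had 14 reads in EDL, 37 in soleus and 13 in cardiac muscle, and Pcnt had 17, 24 and 17. The remaining lists were thinly read. Other tubulin-modifying enzymes had 5, 3 and 15 reads in all, with Agtpbp1, a deglutamylase, at 1, 2 and 9 and Ttll4, a polyglutamylase, at 4, 1 and 4. Tubulins and their nucleating complex had 9, 9 and 10 reads, mostly Tubgcp6 with 9, 7 and 4, and Tubgcp3 had 0, 1 and 2. Of the related kinases, Mast4 had 3, 2 and 0 reads and Mast3 had 0, 1 and 2. Severing proteins had 0 reads in every library. Transcripts under 5 kb were selected against, and low counts do not show absence.

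The genes whose 3 levels lay nearest to each member's were also looked up, among 481 genes with at least 30 reads, by the distance between centred log2 RPM values. Ttll7 lay nearest to Myh1, a fast myosin heavy chain with 119 reads in EDL, 100 in soleus and 4 in cardiac muscle, and then Pde4d. Agbl1 lay nearest to Cacna1s, the skeletal calcium channel, with 129, 87 and 2 reads, and to Tnnt3. Clip1 lay nearest to Huwe1 and Flnc, Map4 to Ank3, and Kif1b to Vprbp and Nid1. Spag9 lay nearest to Zbtb16 and Abcc5, and Mast2 to Supt6 and Fnip1. Clasp1 lay nearest to Slc12a7 and Nbeal1 at distances of 0.512 and 0.561, and Kif5b to Golga4 and Kif21a at 0.680 and 0.749. For Ttll7 the distances were 0.387 and 0.522, for Agbl1 0.307 and 0.383, and for the nearest gene of each other member between 0.0143 and 0.109. With 3 libraries such likeness is a description only.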

How the data were processed

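Per the authors' deposited protocol text, htseq-count gave the consensus reads of each gene name on mouse mm10 (GRCm38). STAR 2.5.0am is named in the submitters' processing notes. The authors deposited raw read counts per gene and, for exonic parts of 686 genes, counts of consensus and full-length reads covering and holding each part. The deposited fraction is holding over covering reads and was recomputed here as a percent. Part positions were counted from 0 and are printed from 1.

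Here gene counts were divided by the reads in genes (RPM). Reads assigned to no single gene, 8.92% in EDL, 8.64% in soleus and 9.78% in cardiac muscle, stayed out. Ratios have exact conditional binomial 95% intervals, and a count of 0 was set to a floor of 3 reads. Log2 ratios had 0.5 read added. Shares have exact Clopper-Pearson intervals, and intervals and floors cover counting error only. Exonic parts with 30 covering consensus reads in some library were tested with Fisher's two-sided exact test, adjusted by Benjamini-Hochberg over all genes, and called at an adjusted p under 0.05 and 20 points. Full-length reads merged into 1 consensus read are not independent, so both units were tested. The tests compare libraries, not tissues in general. Genes and parts were named by a written rule: all 9 members, every called part, up to 3 variable parts and the widest unannotated part per gene, and the 2 most read genes of each wider list. Members and lists were chosen with earlier results of these data known. Not every gene of nearest levels is reported here. Unannotated parts carry u in their number. All 495 annotated parts lay within GENCODE M21 exons and 0 of 21 unannotated parts did. Calculations used Python 3.11.15 and scipy 1.17.1, and both calls were tested on simulated data. The simulated reads were independent, so the error of calls on merged full-length reads was not measured. Alternatives were other scalings, read minimums, fold and point thresholds, and read units.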

Additional observations from a re-analysis of the deposited data

How the results depend on the processing

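For EDL over cardiac muscle, 3 members and 42 of all genes were called. Asking only for an interval off equal abundance gave 6 and 112, a bound of 1.5-fold gave 65 genes, a minimum of 10 reads 65, no minimum 68, and full-length reads at the part of best coverage 166. The full-length setting takes in only the 686 genes with exonic parts and counts every merged read. Its counts thus do not come from the same genes tested, and its intervals are narrower than independent reads would allow. For soleus over cardiac muscle, 3 members and 39 genes became 5 members at 1.5-fold, 8 and 97 off equal abundance, 6 and 161 by full-length reads, and 59 and 60 genes with 10 reads or no minimum. The count of all genes at 1.5-fold in this pair is not reported here, so those 5 members are not set against a background. For EDL over soleus, 0 members and 9 genes became 1 and 21 at 1.5-fold, 3 and 60 off equal abundance, and 2 and 81 by full-length reads. Spag9 had a log2 ratio of -0.32 for soleus over cardiac muscle by full-length reads, against 0.32 by consensus reads, and Kif5b lost its call under both other scalings. By full-length reads Kif1b was called higher in EDL (log2 1.91) and soleus (2.07) over cardiac muscle, and in soleus over cardiac muscle Clip1 was higher (1.81) and Clasp1 lower (-3.33). The 2 members called in EDL over soleus were Kif5b, lower at a ratio of 0.0280 against 0.191 by consensus reads, and Clip1, lower at 0.384 against 0.567. Kif5b in soleus over cardiac muscle had a ratio of 34.0 against 6.03, and Clasp1 in EDL over cardiac muscle 0.0488 against 0.154. The log2 ratios of Ttll7 were 6.35 and 4.99 for EDL and soleus over cardiac muscle, against 4.53 and 4.04. Leaving out the 10 most read genes of each library moved all log2 ratios of soleus over cardiac muscle by -0.11.

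For exon use in EDL over cardiac muscle, 8 parts of members became 4 by consensus reads and 1 with 30 consensus reads in both libraries, where all parts were 146, against 240. For soleus over cardiac muscle, 4 became 2 by consensus reads, 0 with that coverage in both and 7 at 10 points, and all parts 52 with that coverage. For EDL over soleus, 3 became 1 by consensus reads and 5 at 10 points, and all parts were 20 by consensus reads and 31 with that coverage. Fewer parts enter when both libraries must be covered. The counts over all parts at 10 points are not reported here, so the rises to 7 and 5 are not read as a trait of the members. At a coverage of 10 consensus reads in some library, part 74 of Clasp1 lost its EDL call (adjusted exact p = 0.148). The cause of the other changes was not tested.

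No paired analysis was possible because each muscle had 1 library. Depth limits Clasp1 in EDL, Kif5b in EDL and cardiac muscle, and Ttll7 and Agbl1 in cardiac muscle, where few or no reads were present.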
